A study of Mus musculus with 31 samples.

Results

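The 31 BXD recombinant inbred mouse strains were ranked by the mean log2 ratio of 4 kidney genes known to respond to androgen, Kap, Odc1, Adh1 and Slco1a1. The 8 strains with the highest mean were set against the 8 with the lowest across all other genes. The high strains were BXD2, BXD12, BXD1, BXD14, BXD5, BXD20, BXD27 and BXD18. The low strains were BXD34, BXD39, BXD15, BXD42, BXD21, BXD23, BXD38 and BXD33. These are 16 of the 31 strains of the series, and 15 strains lay in neither group. The membership was thus chosen by measured values of those 4 genes. A BXD strain is an inbred line bred from C57BL/6J and DBA/2J mice, in which each locus is fixed for the allele of one parent.

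Every strain of both groups was male, aged 8 weeks and untreated as far as the labels say, so the groups differ in strain and in no labelled treatment. Each strain gave a pool of RNA from 3 animals, which was labelled with a red Alexa Fluor dye and hybridized on 1 spotted array against C57BL/6J male RNA carrying a green one. A strain therefore has 1 value per gene, and an effect of the strain and one of its array cannot be told apart. Sample titles name kidney, while source and tissue fields name whole brain. The values are ratios between like tissues and do not show the level of a kidney or brain marker, so the labels could not be settled from them. The gene lists below follow the titles and assume kidney.

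In male rodents, testosterone enters the epithelial cells of the proximal tubule, where it raises transcription of a set of kidney genes. The mouse kidney is known for a large sex difference of this kind, in enzymes of lipid, steroid and xenobiotic metabolism and in transporters of organic ions. Circulating androgen and the response to it are both known to differ between inbred mouse strains. Hormone levels were not analysed here.

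Kap encodes an androgen-regulated protein of the proximal tubule whose function is little known. Odc1 encodes ornithine decarboxylase, the rate-limiting enzyme of polyamine synthesis. Adh1 encodes the class I alcohol dehydrogenase, which oxidizes ethanol and retinol, and Slco1a1 encodes an uptake transporter for organic anions including steroid conjugates. Their upstream sequence is shown for Kap and Adh1, the markers without and with a match to the core motif of an androgen response element, from RefSeq (GRCm38.p6), 5′ to 3′ on the strand of the gene, ending at the base before its start. Capitals mark AGAACA or its complement TGTTCT, the motif searched on both strands of the 250 bases upstream.
Kap, chr6:133853668-133853917, strand -: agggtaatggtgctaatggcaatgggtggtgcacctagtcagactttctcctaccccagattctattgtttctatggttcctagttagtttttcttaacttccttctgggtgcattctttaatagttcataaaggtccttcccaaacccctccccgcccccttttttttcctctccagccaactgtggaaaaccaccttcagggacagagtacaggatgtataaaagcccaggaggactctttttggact
Adh1, chr3:138277335-138277584, strand +: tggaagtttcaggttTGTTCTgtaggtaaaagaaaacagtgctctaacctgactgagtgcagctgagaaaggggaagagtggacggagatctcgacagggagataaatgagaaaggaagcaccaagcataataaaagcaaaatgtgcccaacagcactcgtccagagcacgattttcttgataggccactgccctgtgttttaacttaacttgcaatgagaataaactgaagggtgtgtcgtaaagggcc
The match in Adh1 began at position -235 from the start. The windows of Odc1 and Slco1a1 held no match. The same letters occurred in 16.1% of all 32851 windows of this length, so a match is a description of the sequence and not of binding.

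The score, the mean log2 ratio of the 4 genes, ran from 0.64 to 2.02 with a median of 0.87 in the high strains, and from -1.93 to -0.18 with a median of -0.63 in the low strains. The 15 strains between them had scores of -0.04 to 0.60. At the edges, BXD18 was inside the high group at 0.64 and BXD19 outside it at 0.60, while BXD34 was inside the low group at -0.18 and BXD22 outside it at -0.04. The groups thus cut a continuous range, most narrowly at the upper edge.

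These 4 genes chose the groups, so their values describe the groups and carry no test. Odc1 ran from 0.34 to 2.39 with a median of 0.74 in the high strains, and from -2.51 to 0.26 with a median of -1.21 in the low strains. It was the only one of the 4 without overlap between the groups. Adh1 ran from 0.69 to 2.16 with a median of 1.26 in the high strains, and from -1.62 to 0.75 with a median of -1.06 in the low strains. Slco1a1 ran from -1.06 to 1.53 with a median of 0.49 in the high strains, and from -2.23 to 0.06 with a median of -0.80 in the low strains. In the high strain BXD5, Slco1a1 was at -1.06, below 5 of the 8 low strains.

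Kap ran from 0.01 to 2.96 with a median of 1.86 in the high strains, and from -1.67 to 3.11 with a median of -0.29 in the low strains. Its values in the high strains were of 2 sizes: 2.96 in BXD2, 2.60 in BXD12, 2.77 in BXD1 and 2.79 in BXD5, and 1.12 or less in the other 4. The highest Kap ratio of all 31 strains was 3.11, in the low strain BXD15, where Odc1 was at -2.46, Adh1 at -1.30 and Slco1a1 at -1.57. BXD15 is therefore low by 3 of the 4 genes and high by the remaining one. By their SD over the 31 strains, Kap ranked 23, Odc1 50, Adh1 157 and Slco1a1 263 of 15095 genes, so the 4 markers were among the more variable genes on the array.

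**Figure D1:**
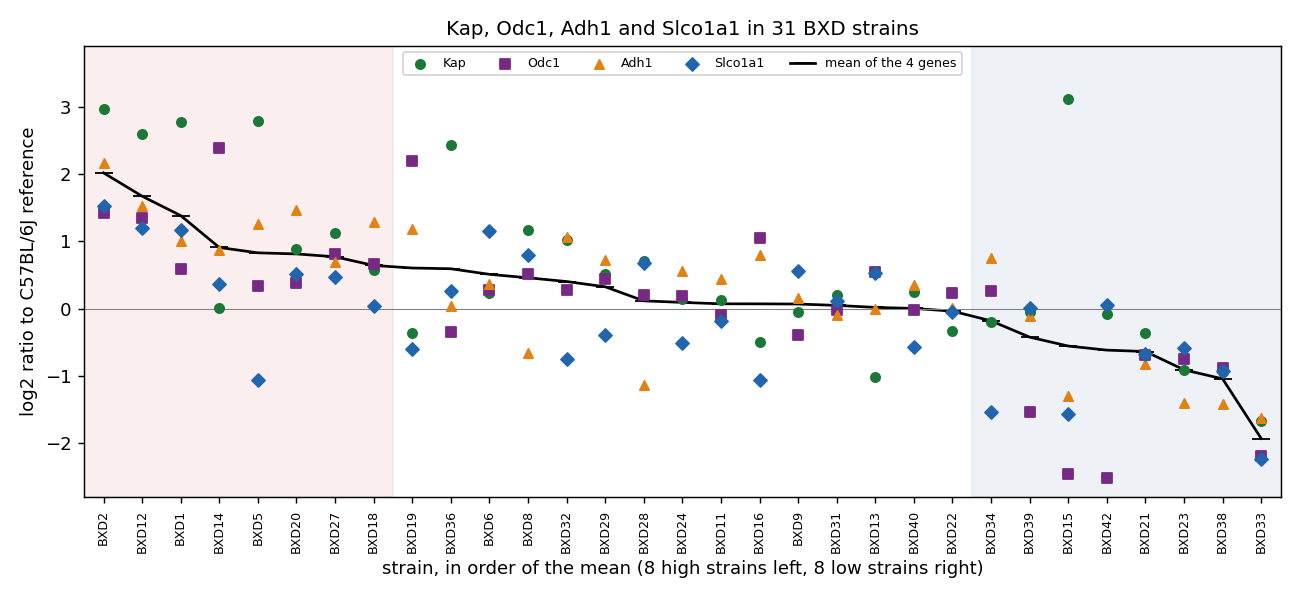
Log2 ratio to the C57BL/6J reference (vertical axis) of Kap, Odc1, Adh1 and Slco1a1 in each of the 31 strains, in order of their mean (black line), with the 8 high strains shaded at the left and the 8 low strains at the right. Kap in BXD15 (3.11) lies far above the 3 other genes of that strain, and only Odc1 separates the 2 groups without overlap.

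The groups differed in strain number, which follows the order in which the strains were founded. The high strains had a mean strain number of 12.4 ± 9.24 and the low strains one of 30.6 ± 9.75 (SD, n = 8 each; exact permutation test, 2-sided, p = 0.00601 adjusted over 4 array measures). Of the 10 strains from BXD1 to BXD14, 5 were high and 0 low; of the 7 strains from BXD33 to BXD42, 0 were high and 5 low. Array-wide measures moved with the groups too. The median correlation of an array with the others averaged 0.361 ± 0.0260 in the high strains and 0.203 ± 0.114 in the low strains (adjusted exact p = 0.00559). The low strains BXD15 at 0.044 and BXD38 at 0.062 had the lowest values of all 31 arrays. Without both, 68 genes were called higher and 26 lower in the comparison below, against 440 and 212 with them. The first principal component of all genes, with 21.9% of the variance, averaged 0.173 ± 0.147 in the high strains and -0.101 ± 0.156 in the low strains (adjusted exact p = 0.00601). Gapdh, a glycolytic gene, averaged 0.28 ± 0.28 in the high strains and -0.10 ± 0.53 in the low strains (adjusted exact p = 0.0833), and was lowest in BXD15 at -1.20. The part of strain order and of array-wide variation in the results that follow was not tested beyond the fits given with them.

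**Figure D2:**
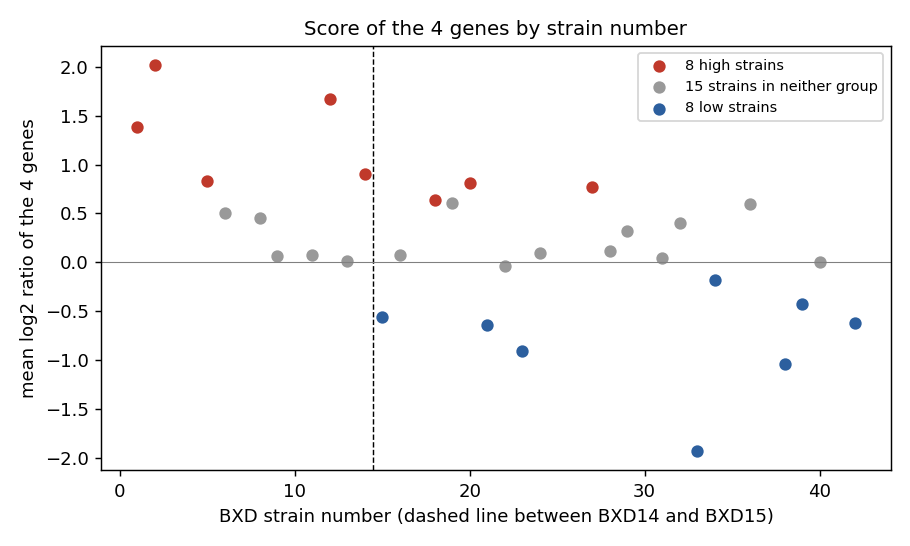
Mean log2 ratio of the 4 genes (vertical axis) against BXD strain number (horizontal axis), with each point a strain and the dashed line between BXD14 and BXD15. All 8 low strains lie to the right of the line, where 3 of the 8 high strains also lie.

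Across the 15091 other genes, 440 were higher (2.92%) and 212 lower (1.4%) in the high strains at an adjusted p under 0.05 (limma, Benjamini-Hochberg over all genes). At an unadjusted p under 0.05 there were 3479 genes (23.1%). The values of the groups did not overlap for 55 genes in the higher direction (0.364%) and 14 in the lower (0.0928%), of which 51 and 11 also passed the test. Fitted as a number over all 31 strains, the score gave 434 genes with a positive slope (2.88%) and 195 with a negative one (1.29%), and 3047 genes (20.2%) had an unadjusted p under 0.05. The 4 genes chose the strains, so a called gene is one that covaried with them over these arrays. The counts depended on which genes made the score: with Odc1 left out of the score 0 genes were higher and 1 lower (limma, 1831 at an unadjusted p under 0.05), and with Adh1 left out 6 and 1. With Kap left out 146 were higher and 41 lower, and with Slco1a1 left out 608 and 450. A score of Odc1, Adh1 and Slco1a1 without BXD15, chosen after seeing the data, called 0 genes in either direction (2614 at an unadjusted p under 0.05). The sign of a difference is relative to the 4 genes: were the deposited ratios the other way up, the groups would change places and each gene would keep its side.

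These counts rested on the strains entered. Without the high strain BXD2 the total of 652 called genes (4.32%) became 174, without BXD20 194, without BXD12 248, without BXD5 255 and without BXD27 352. Without the low strain BXD38 it became 255, without BXD23 285 and without BXD42 290. It grew to 1711 without BXD18, the high strain nearest the edge, and to 986 without BXD33. By direction, the higher genes numbered 677 without BXD34, and the lower genes 121 without BXD14 and 134 without BXD39. A set of 156 genes, 106 higher and 50 lower, was called in all 16 fits that left out 1 strain.

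With strain order as a covariate (BXD1-14 against BXD15-42), limma called 0 genes (0.0% higher, 0.0% lower), and 1425 genes (9.44%) had an unadjusted p under 0.05. This fit compares the groups within BXD15-42 alone, where 3 high and 8 low strains lie. All 440 higher and all 212 lower genes kept their sign in it, with 403 and 163 of them at an unadjusted p under 0.05. It reuses 11 of the 16 arrays, and over all genes 86.4% of those with a positive and 83.2% of those with a negative difference kept their sign. The median difference of the 440 was 0.75 in that fit and 0.81 without the covariate, and that of the 212 was -0.73 and -0.81. With the first principal component as a covariate, limma again called 0 genes (0.0% higher, 0.0% lower; 1279 genes, 8.48%, at an unadjusted p under 0.05). There the median difference shrank to 0.50 for the 440 and to -0.44 for the 212, with 208 and 80 of them at an unadjusted p under 0.05.

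The 15 strains in neither group gave a separate view. There the slope of each gene on the score was called for 0 genes (0.0% higher, 0.0% lower), with 529 genes (3.51%) at an unadjusted p under 0.05. The slope had the sign of the group difference for 220 of the 440 higher genes (50%) and 97 of the 212 lower genes (45.8%). Over all genes with a positive difference that share was 42.2%, and over those with a negative one 50.4%. The median slope was -9.7e-05 for the higher genes and 0.036 for the lower, against median group differences of 0.42 and -0.42 per unit of score. The medians of the called genes thus lay near 0 in these strains. The median SE of a single slope was 0.46 for the higher and 0.40 for the lower genes, so single genes could hardly be told from 0.

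**Figure D3:**
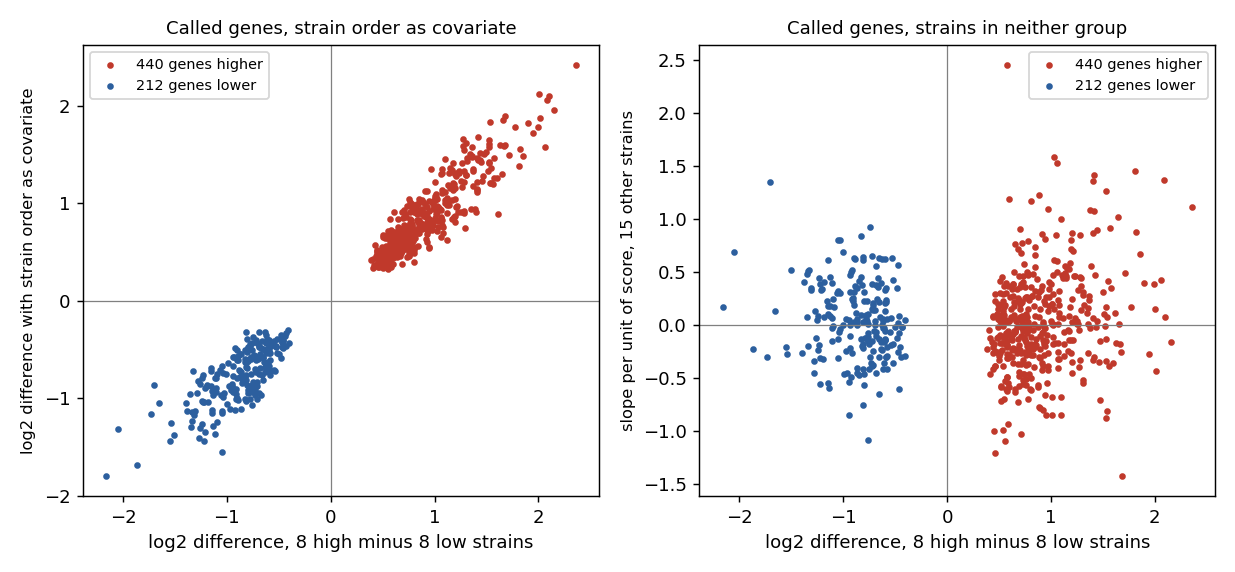
The 440 higher (red) and 212 lower (blue) genes, by their log2 difference between high and low strains (horizontal axis), against the difference with strain order as a covariate (left panel, log2) and the slope per unit of score in the 15 other strains (right panel). All points keep their sign at the left, while at the right 220 red and 97 blue points do.

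Further androgen-responsive kidney genes tended to follow the 4 that made the score. The list was written with earlier results of these data known, so its share describes these genes and is no independent support. Of 12 listed genes 9 were measured, of which 3 (33.3%) were higher, against 2.92% of all genes, and 0 were lower. The list had a median difference of 0.67 against 0.02 over all genes, and 8 of its 9 members had a positive one. Its mean log2 ratio ran from 0.09 to 0.81 in the high strains and from -1.04 to 0.15 in the low strains. In the fit with strain order 8 of 9 were again positive, with a median of 0.60. In the 15 strains between the groups 8 of 9 had a positive slope, beside 6902 of all 15091 genes. These were not the same 8: Nudt19 turned negative there (-1.15) and Cyp2d9 positive (0.25). Only Acsm3 had an unadjusted p under 0.05 in that limma fit. Within BXD15-42 the slope was positive for 7 of 9, beside 7855 of all 15091 genes.

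Acsm3, an acyl-CoA synthetase for medium-chain fatty acids, was the member with the clearest separation. It ran from 0.33 to 1.19 with a median of 0.62 in the high strains, and from -2.54 to -0.11 with a median of -1.26 in the low strains. No high strain overlapped with a low one. The difference was 2.08 ± 0.303 (SE; limma adjusted p = 0.00768), and all 16 fits without 1 strain called it. Within the 21 strains BXD15-42 its slope was 1.23 ± 0.178 per unit of score (limma adjusted p = 0.00109 for that fit). It was 1.37 in the 15 strains between the groups, at an unadjusted p of 0.0450.

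Cyp4b1, a cytochrome P450 that hydroxylates fatty acids and activates xenobiotics, had the largest difference of all genes called. It ran from 0.23 to 3.32 with a median of 1.43 in the high strains, and from -2.88 to 0.72 with a median of -0.36 in the low strains. Of the high strains only BXD14, at 0.23, fell among the low ones. The difference was 2.36 ± 0.468 (SE; limma adjusted p = 0.0155), and all 16 fits without 1 strain called it. Its slope within BXD15-42 was 1.30 ± 0.265 per unit of score, at 1.06 within BXD1-14 and 1.12 in the 15 strains between the groups, where neither of the last values was called. Its upstream window is given in the same form as those of the markers, since it too holds TGTTCT, here at position -248.
Cyp4b1, chr4:115647722-115647971, strand -: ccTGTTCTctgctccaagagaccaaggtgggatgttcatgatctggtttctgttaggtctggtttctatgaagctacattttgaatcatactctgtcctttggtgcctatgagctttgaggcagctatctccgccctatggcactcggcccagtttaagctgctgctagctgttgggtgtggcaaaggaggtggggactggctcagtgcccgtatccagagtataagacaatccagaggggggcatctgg
The window of Acsm3 held no match. Over the genes tested that had a window, 15.5% held a match, and so did 14.9% of the higher and 16.2% of the lower genes. These shares lie close together.

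The third called member was Gusb, beta-glucuronidase, a lysosomal enzyme and a long-known androgen target in mouse kidney. It ran from -0.06 to 0.86 with a median of 0.43 in the high strains, and from -1.19 to 0.38 with a median of -0.20 in the low strains. The groups overlapped, with 4 high strains above every low strain. The difference was 0.71 ± 0.201 (SE; limma adjusted p = 0.0494) and passed in 2 of the 16 fits without 1 strain, where the adjusted p ran from 0.0202 to 0.0873. Its slope within BXD15-42 was -0.01.

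The other 6 measured members did not pass. Nudt19, a peroxisomal CoA hydrolase, differed by 1.31 ± 0.582 (limma adjusted p = 0.182), and its high strains spread from -2.42 to 1.03. Slc7a13, an amino acid transporter of the late proximal tubule, differed by 0.67 ± 0.195 (adjusted p = 0.0547). The differences were 0.59 for Cyp2e1, 0.58 for Cyp2j5, 0.35 for Cyp4a12a and -0.13 for Cyp2d9, all P450 enzymes, with adjusted p of 0.273, 0.0838, 0.309 and 0.572. Cyp2d9, a steroid hydroxylase with a male-specific pattern in mouse, ran from -0.69 to 0.24 in the high strains and from -0.03 to 0.22 in the low strains.

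Genes known to be higher in female mouse kidney were few on the array. Of 7 listed genes 4 were measured, of which 1 was higher and 0 lower, against 2.92% and 1.4% of all genes. Their median difference was -0.08, with 2 positive and 2 negative values. The called gene was Slc22a7, an organic anion transporter. It ran from -0.22 to 1.93 with a median of 0.89 in the high strains, and from -2.13 to -0.47 with a median of -0.76 in the low strains. The groups did not overlap, and the difference was 1.81 ± 0.269 (SE; limma adjusted p = 0.00768), on the side of the androgen-responsive genes. All 16 fits without 1 strain called it, its slope within BXD15-42 was 0.78 ± 0.129 (adjusted p = 0.00392) and its slope in the 15 strains between the groups was 1.46 at an unadjusted p of 0.0256.

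Of the other 3, Abcc3, an export pump for conjugates, differed by -0.31 ± 0.143 (limma adjusted p = 0.198). Cyp4a14, a fatty acid hydroxylase, differed by -0.34 ± 0.288 (adjusted p = 0.499), and Cyp2a4, a testosterone hydroxylase, by 0.15 ± 0.168 (adjusted p = 0.613). Their high and low strains overlapped widely.

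**Figure D4:**
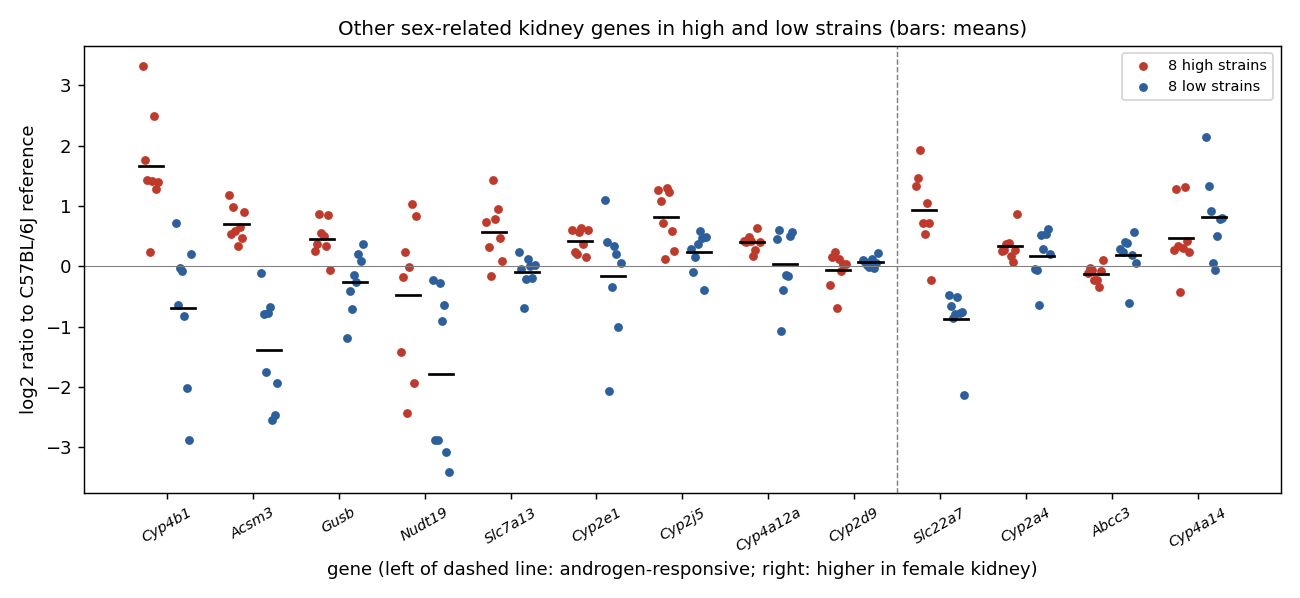
Log2 ratio to the C57BL/6J reference (vertical axis) in the 8 high strains (red, left) and the 8 low strains (blue, right) for 9 androgen-responsive genes and, right of the dashed line, 4 genes known to be higher in female kidney, with bars at the means. Acsm3 and Slc22a7 show no overlap between the groups.

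The genes with the largest differences came from many functions. Of all 71 genes named, 3 had more than 1 probe, so most values are those of a single probe. Besides Cyp4b1 and Acsm3, the 12 most strongly higher genes were Myo10, Slc5a2, 5830471E12Rik, 3300002P13Rik, Tuba1b, Krt15, Rhpn1, Rtn1, Tmem176a and Tmed6. Myo10, an unconventional myosin of filopodia, ran from 0.50 to 2.21 with a median of 1.38 in the high strains, and from -2.94 to -0.09 with a median of -0.40 in the low strains. Its groups did not overlap, and it differed by 2.15 ± 0.355 (limma adjusted p = 0.00768). In the 15 strains between the groups, however, its slope was -0.16. Slc5a2, the sodium-glucose cotransporter SGLT2 of the early proximal tubule, ran from -1.04 to 2.63 with a median of 0.95 in the high strains, and from -2.43 to -0.04 with a median of -1.32 in the low strains. It differed by 2.10 ± 0.421 (adjusted p = 0.0155), with 7 high strains above every low strain.

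Tuba1b, an alpha-tubulin, had a ratio above 0 in every strain of both groups, which is above the reference only if the ratios are strain over reference. It ran from 1.07 to 4.95 with a median of 2.75 in the high strains, and from 0.09 to 1.28 with a median of 0.95 in the low strains, a difference of 2.01 ± 0.385 (limma adjusted p = 0.0134). Tmem176a, a membrane protein gene with 2 probes, differed by 1.85 ± 0.304 (adjusted p = 0.00768), and its probes gave 1.67 and 2.04. The differences were 2.06 for 5830471E12Rik, 2.02 for 3300002P13Rik, 2.00 for the keratin gene Krt15, 1.95 for Rhpn1, 1.90 for the reticulon gene Rtn1 and 1.82 for Tmed6, of the vesicle-cargo family p24. Adjusted p values of these 6 ran from 0.0100 for 5830471E12Rik to 0.0360 for Rtn1. The call of Krt15 was lost without BXD2 (adjusted p = 0.0551) and that of Rhpn1 without BXD2 (0.0542) or BXD20 (0.0515), while Rtn1 was called in 6 of 16 such fits, Tmed6 in 10 and 3300002P13Rik in 12. The last was not called without BXD2 (0.0554), BXD5 (0.0523), BXD20 (0.0609) or BXD38 (0.0552).

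Among the lower genes, the largest difference was in Ogfrl1, a relative of the opioid growth factor receptor. It ran from -3.18 to -1.49 with a median of -2.51 in the high strains, and from -2.74 to 1.69 with a median of -0.10 in the low strains, a difference of -2.16 ± 0.482 (limma adjusted p = 0.0225). Marveld2, which encodes tricellulin, a protein of tight junctions where 3 cells meet, was the only lower gene named by the rule without overlap. It ran from -2.16 to -0.91 with a median of -1.52 in the high strains, and from -0.66 to 0.78 with a median of -0.16 in the low strains. It differed by -1.54 ± 0.223 (adjusted p = 0.00768), and its slope within BXD1-14 was -0.80 ± 0.0973 (adjusted p = 0.0120 in that fit).

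Ppm1d, a phosphatase that dampens the p53 response, ran from -2.07 to -0.20 with a median of -1.43 in the high strains, and from -1.01 to 1.02 with a median of 0.54 in the low strains. It differed by -1.65 ± 0.290 (limma adjusted p = 0.0100). The others of the 12 were 1700083H02Rik at -2.05, C030007H22Rik at -1.87, the synaptotagmin gene Syt13 at -1.73, 4930590G02Rik at -1.70, the interferon-inducible Ifi204 at -1.55, the cytokine gene Il9 at -1.50, Megf6 at -1.39, 5730442G03Rik at -1.38 and the odorant receptor gene Olfr68 at -1.35. Their adjusted p values ran from 0.0133 for Il9 to 0.0381 for 4930590G02Rik. Among these 12, C030007H22Rik, Ifi204, Il9, 5730442G03Rik, Ogfrl1, Marveld2 and Ppm1d were called in all 16 fits without 1 strain, Syt13 in 11, 4930590G02Rik in 6, and 1700083H02Rik, Megf6 and Olfr68 in 5.

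Genes of steroid hormone action were listed as partners of the androgen response. Of 33 listed, 24 were measured, 3 of them higher (12.5%, against 2.92% of all genes) and 0 lower, with a median difference of 0.14. Cyp7b1, an oxysterol and androgen-metabolite hydroxylase, ran from -0.99 to 1.07 with a median of 0.37 in the high strains, and from -1.88 to 0.07 with a median of -1.21 in the low strains. It differed by 1.37 ± 0.322 (limma adjusted p = 0.0268), with 6 high strains above every low one, and lost the call without BXD2 (0.0580), BXD12 (0.0549), BXD20 (0.0536) or BXD38 (0.0527). Igf1r, the receptor of insulin-like growth factor, differed by 0.52 ± 0.144 (adjusted p = 0.0457), and Ncoa2, a coactivator of nuclear receptors, by 0.46 ± 0.118 (adjusted p = 0.0360). Both were called in 5 of 16 fits without 1 strain. The 3 probes of Igf1r gave 0.41, 0.70 and 0.46.

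The pathway of Odc1 itself gave mixed signs. Of 21 measured genes of polyamine and arginine metabolism, 2 were higher (9.52%) and 1 lower (4.76%), against 2.92% and 1.4% of all genes, with a median difference of 0.17. Eif5a, the translation factor that carries the polyamine-derived residue hypusine, ran from 0.21 to 3.61 with a median of 1.55 in the high strains, and from -1.50 to 0.50 with a median of 0.10 in the low strains. It differed by 1.65 ± 0.405 (limma adjusted p = 0.0304). Oaz1, the antizyme that directs ornithine decarboxylase to degradation, differed by 0.56 ± 0.146 (adjusted p = 0.0370). Mtap, which recycles the methylthioadenosine left over from polyamine synthesis, was lower by -1.15 ± 0.282 (adjusted p = 0.0303). These 3 were called in 8, 6 and 8 of the 16 fits without 1 strain. The enzymes that follow ornithine decarboxylase, spermidine synthase (Srm, 0.21) and spermine synthase (Sms, 0.20), did not pass.

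Around Adh1, 26 genes of alcohol, aldehyde and retinoid metabolism were measured, of which 1 was higher and 0 lower, with a median difference of 0.28 and 21 positive differences. This share of 3.85% is close to the 2.92% of all genes, so it is no result about the list. The called gene was Rdh16, a retinol dehydrogenase, at 0.65 ± 0.171 (limma adjusted p = 0.0393), called in 5 of 16 fits without 1 strain. Of the 40 measured genes that lie nearest to the 4 markers on their chromosomes, 5 on each side, only Adh6b passed, a smaller share than the 4.32% of all genes called in either direction. Adh6b, a further alcohol dehydrogenase and the neighbour of Adh1, ran from -1.17 to -0.04 with a median of -0.34 in the high strains, and from -0.11 to 0.49 with a median of 0.22 in the low strains. It was lower by -0.69 ± 0.169 (adjusted p = 0.0307), opposite to Adh1, and was called in 9 of 16 fits without 1 strain. The other measured alcohol dehydrogenases of that cluster, Adh7 (0.32), Adh4 (-0.02) and Adh5 (0.06), did not pass.

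Among relatives of Slco1a1, 18 genes of a list of Slco and Slc22 organic ion transporters were measured. Of these listed genes 2 were higher (11.1%, against 2.92% of all genes) and 0 lower, with a median difference of -0.05. Slc22a12, the urate transporter URAT1, ran from 0.37 to 2.28 with a median of 0.88 in the high strains, and from -1.73 to -0.01 with a median of -0.40 in the low strains. Its groups did not overlap, and it differed by 1.58 ± 0.293 (limma adjusted p = 0.0122). Slc22a6, the organic anion transporter OAT1, differed by 0.71 ± 0.168 (adjusted p = 0.0285) and was called in 11 of 16 fits without 1 strain. The list does not hold every measured member: Slc22a7, given above, and Slc22a26 were not counted in it. Slc22a26 was higher by 1.65 ± 0.265 (limma adjusted p = 0.00768) and was called in all 16 fits without 1 strain. The nearest relatives of Slco1a1 on the chromosome, Slco1a4 (-0.29), Slco1a5 (-0.40) and Slco1a6 (0.03), did not pass.

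Proximal tubule genes were higher in part. Of 35 measured, 6 were higher (17.1%) and 0 lower, with a median difference of 0.34, and 25 were positive, beside 2.92% higher, a median of 0.02 and 7852 of 15091 positive over all genes. The list mean ran from 0.27 to 0.61 in the high strains and from -0.30 to 0.29 in the low strains. Over the 15 strains between the groups, 17 of the 35 genes had a positive slope, beside 6902 of all 15091 genes. Besides Slc5a2, the called genes with the largest values were Slc27a2, a fatty acid transport protein (1.67 ± 0.443, limma adjusted p = 0.0385), Mep1a, a subunit of the brush border protease meprin (1.36 ± 0.249, adjusted p = 0.0115), and Dpep1, a brush border dipeptidase (1.29 ± 0.273, adjusted p = 0.0199). Mep1a ran from 0.10 to 1.66 in the high strains and from -1.59 to 0.01 in the low strains without overlap, and its slope within BXD15-42 was 0.85 ± 0.123 (adjusted p = 0.00109). Slc27a2 was called in 5 of 16 fits without 1 strain, Mep1a and Dpep1 in all. Defining genes of the same segment did not all move: Slc34a1, the phosphate cotransporter, differed by 0.66 (adjusted p = 0.142), Slc2a2, a glucose transporter, by 0.0028 and Hnf4a, a transcription factor, by -0.12. In bulk RNA, fewer cells of a type and less RNA per cell cannot be told apart.

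Genes of the mitochondrial respiratory chain were higher in part. Of 38 measured genes of a list of oxidative phosphorylation, 7 were higher (18.4%) and 0 lower, with a median difference of 0.47. Of these 38, 33 had a positive difference, beside 2.92% higher and 7852 of 15091 positive over all genes. The called genes of the list with the largest values were 3 subunits of cytochrome c oxidase and Ndufa1 of complex I (0.83 ± 0.190, limma adjusted p = 0.0250). The 3 subunits were Cox5b (1.53 ± 0.416, limma adjusted p = 0.0427), Cox6a1 (1.42 ± 0.271, adjusted p = 0.0133) and Cox7a2 (1.41 ± 0.333, adjusted p = 0.0273). Cox6a1 ran from 0.81 to 3.13 with a median of 2.30 in the high strains, and from 0.37 to 1.44 with a median of 0.63 in the low strains. It was called in all 16 fits without 1 strain, Ndufa1 in 12, Cox7a2 in 10 and Cox5b in 6. Ndufa1 was not called without BXD2 (0.0548), BXD12 (0.0525), BXD20 (0.0536) or BXD38 (0.0503). Genes of the chain outside the list were not counted, and they went both ways. Cox4i2, a further cytochrome c oxidase subunit, was lower by -1.35 ± 0.237 (limma adjusted p = 0.0100). Atp5h, an ATP synthase gene, was higher by 0.91 ± 0.196 (limma adjusted p = 0.0203). Both were called in all 16 fits without 1 strain. The list mean ran from 0.44 to 1.04 in the high strains and from -0.39 to 0.65 in the low strains, lowest in BXD15, whose array had the lowest correlation with the others. The median was 0.48 with strain order as a covariate, and 22 of 38 genes had a positive slope in the 15 strains between the groups, beside 6902 of all 15091 genes.

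Of 34 measured genes of a list of cytosolic ribosomal proteins 4 were higher (11.8%, against 2.92% of all genes) and 0 lower. The median difference was 0.38. Their list mean too was lowest in BXD15. The called genes of the list were Rpl10a (1.28 ± 0.342, limma adjusted p = 0.0397), Rplp2 (1.19 ± 0.280, adjusted p = 0.0271), Rps3 (1.01 ± 0.262, adjusted p = 0.0366) and Rpl6 (0.74 ± 0.20, adjusted p = 0.0426). Rplp2 was called in 12 of 16 fits without 1 strain, Rps3 in 5, Rpl10a in 4 and Rpl6 in 3. Rplp2 was not called without BXD2 (0.0581), BXD12 (0.0518), BXD20 (0.0602) or BXD42 (0.0511). The list does not hold the whole family, and ribosomal protein genes outside it were not counted. Of those, Rps3a1 (1.54), Rpl13a (1.23), Rpl15 (1.12) and Rps21 (0.78) were higher, with limma adjusted p from 0.0123 to 0.0208. Each was called in all 16 fits without 1 strain. Of 23 genes of the heat shock and unfolded protein response, 3 were higher (13.0%) and 0 lower, with a median of 0.30. Hspe1, the mitochondrial cochaperonin, ran from 1.09 to 2.34 with a median of 1.56 in the high strains, and from -0.37 to 0.83 with a median of 0.46 in the low strains. Its groups did not overlap, and it differed by 1.26 ± 0.20 (adjusted p = 0.00768), with a call in all 16 fits without 1 strain. Hspb1, a small heat shock protein, differed by 0.54 ± 0.137 (adjusted p = 0.0331), and Edem1, of the degradation of misfolded glycoproteins, by 0.49 ± 0.130 (adjusted p = 0.0383).

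Further metabolic lists were read against the 2.92% of all genes that were higher. Among 27 genes of fatty acid oxidation and the peroxisome 2 were higher (7.41%), Etfb, an electron transfer flavoprotein (1.00 ± 0.259, limma adjusted p = 0.0360), and Cpt1b, a carnitine acyltransferase (0.77 ± 0.183, adjusted p = 0.0285). Among 33 xenobiotic genes 2 were higher (6.06%), the glucuronosyltransferases Ugt2b37 (1.20 ± 0.314, adjusted p = 0.0370) and Ugt2b5 (1.10 ± 0.296, adjusted p = 0.0416), whose near relatives may share signal on a spotted probe. These genes were called in 4 to 10 of the 16 fits without 1 strain. The list medians were 0.18 and 0.17, and no gene of either list was lower. Of 18 genes of glycolysis and gluconeogenesis and 14 of cholesterol synthesis 0 were called at the adjusted threshold by limma, with 5 and 4 at an unadjusted p under 0.05 and medians of 0.16 and 0.23.

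Markers of other cell types were examined beside these values. In each of 5 lists 1 gene was higher and 0 lower, shares of 4.35% to 9.09% against 2.92% of all genes. These were Slc26a4 of intercalated cells among 23 genes of the loop of Henle, distal tubule and collecting duct (0.65 ± 0.143, limma adjusted p = 0.0225), Podxl among 11 podocyte genes (0.69 ± 0.188, adjusted p = 0.0433), Emcn among 13 endothelial genes (0.79 ± 0.215, adjusted p = 0.0433), Col3a1 among 13 of smooth muscle and stroma (0.93 ± 0.218, adjusted p = 0.0268), and H2-Aa among 19 of macrophages and lymphocytes (1.12 ± 0.245, adjusted p = 0.0220). The medians were 0.15, 0.11, 0.28, 0.23 and 0.08 in the same order of lists. Endothelium had 11 of 13 positive differences and smooth muscle and stroma 11 of 13, beside 7852 of 15091 genes. Positive slopes in the 15 strains between the groups numbered 16 of 23, 5 of 11, 5 of 13, 4 of 13 and 8 of 19. These are in the same order of lists, beside 6902 of all 15091 genes. The probes of H2-Aa disagreed in size, at 0.62 and 1.62. Slc26a4 lost its call without BXD2 (0.0541) or BXD20 (0.0510). H2-Aa was called in all 16 fits without 1 strain, Col3a1 in 11, Emcn in 4 and Podxl in 3.

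Of tissues that adjoin a kidney, adipose markers had 1 of 11 higher (9.09%, against 2.92% of all genes), Lpl, lipoprotein lipase, which ran from -0.03 to 2.07 in the high strains and from -1.64 to -0.05 in the low strains without overlap (1.42 ± 0.284, limma adjusted p = 0.0155). Lpl is also expressed in kidney. The adipose list mean ran from 0.02 to 1.00 in the high strains and from -0.17 to 0.50 in the low strains. Of the 11 adipose markers 10 had a positive difference, with a median of 0.29. Ucp1 (0.71, p = 0.0146 unadjusted and 0.114 adjusted by limma), Fabp4 (0.73, 0.0228 and 0.141) and Car3 (0.29, 0.0329 and 0.173) passed before adjustment only, and Adipoq (0.66, adjusted p = 0.442) did not. Adrenal markers had 2 of 12 higher (16.7%), with a median of 0.08, the granin Chgb (1.56 ± 0.382, adjusted p = 0.0306), called in 8 of 16 fits without 1 strain, and the steroid dehydrogenase Hsd3b1 (0.93 ± 0.225, adjusted p = 0.0303), called in 12. Hsd3b1 was not called without BXD2 (0.0610), BXD12 (0.0560), BXD20 (0.0579) or BXD38 (0.0546). Of the 12 adrenal markers 7 had a positive and 5 a negative difference. Scarb1 (-0.46, p = 0.00480 unadjusted and 0.0686 adjusted by limma) and Nr5a1 (-0.35, 0.0131 and 0.107) were lower before adjustment only. Cyp11a1 (-0.45, limma adjusted p = 0.221) did not pass. The adrenal list mean ran from 0.20 to 0.33 in the high strains and from -0.19 to 0.34 in the low strains. The part of such cells in the differences was not tested.

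No gene was called by limma among 17 neuronal, 13 glial, 14 liver, 13 skeletal muscle and 4 red cell markers, with 2, 1, 2, 2 and 2 of them at an unadjusted p under 0.05. The medians were -0.11 for neurons, -0.04 for glia, 0.02 for liver, -0.23 for skeletal muscle and 0.15 for red cells. Positive differences numbered 7 of 17, 4 of 13, 7 of 14, 2 of 13 and 2 of 4 in the same order, beside 7852 of 15091 genes. Skeletal muscle thus leaned lower, with 3 of 13 positive when strain order was a covariate. Its slope in the 15 strains between the groups was positive for 8 of 13. The means of the neuronal and glial lists overlapped between the groups, from -0.17 to 0.09 in the high and -0.26 to 0.14 in the low strains for neurons, and from -0.36 to 0.06 in the high and -0.26 to 0.16 in the low strains for glia.

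**Figure D5:**
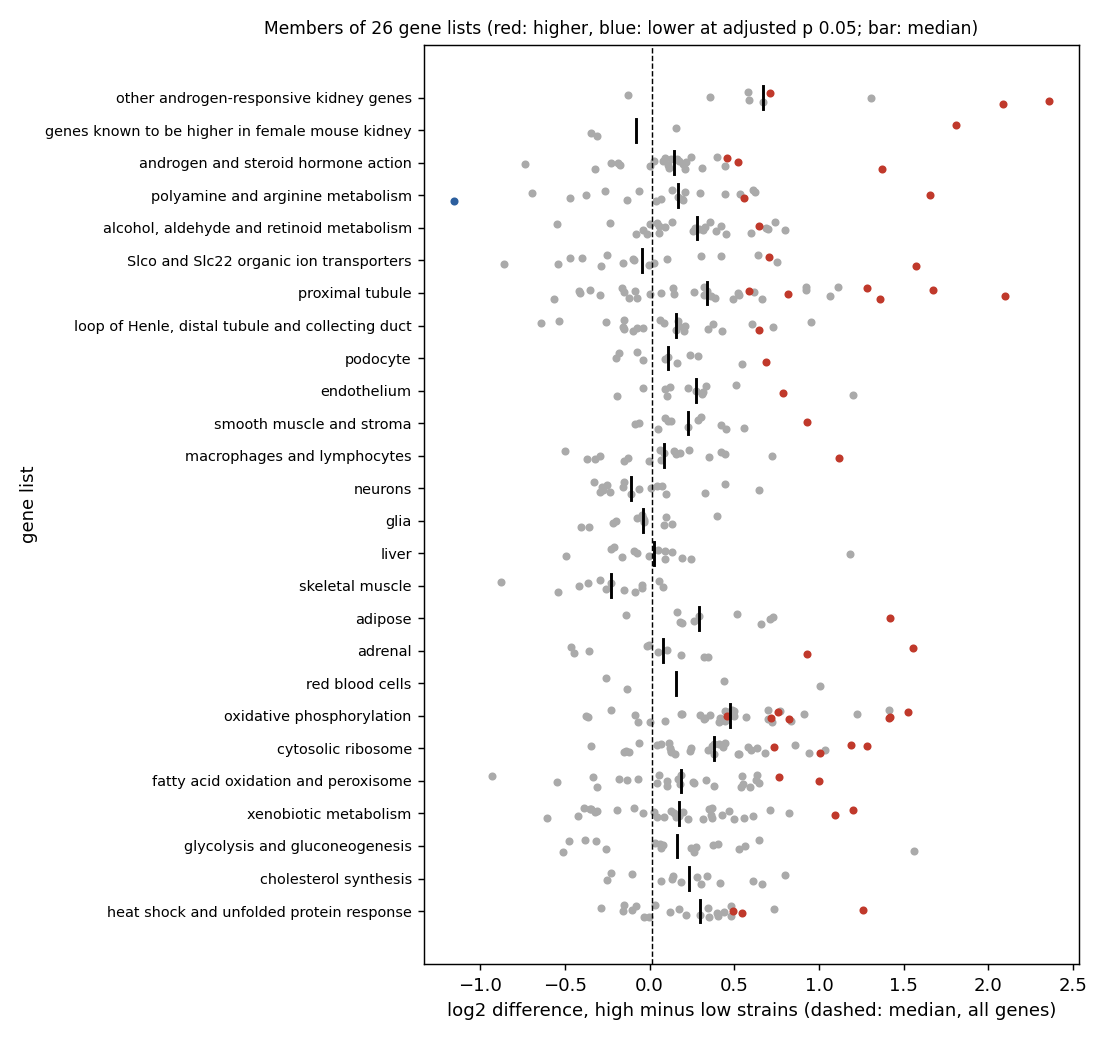
Log2 difference between the 8 high and 8 low strains (horizontal axis) for each measured gene of 26 lists (vertical axis), with called genes in red (higher) or blue (lower), black bars at the list medians and a dashed line at the median of all genes (0.02). The medians of the androgen-responsive list (0.67) and of oxidative phosphorylation (0.47) lie furthest to the right, and Mtap (-1.15) is the only listed gene called lower.

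The score was also fitted as a number within each stretch of strain order. In the 10 strains BXD1-14 limma called 12 genes with a positive slope (0.0795%) and 10 with a negative one (0.0663%). Of the genes higher or lower between the groups, 4 and 4 were among them. Pdzk1, a scaffold protein of the proximal tubule brush border, was the positive gene with the smallest p there, at 1.33 ± 0.151 per unit of score (adjusted p = 0.0120). Between the groups Pdzk1 was not called (1.07, limma adjusted p = 0.0628). The ribosomal protein genes Rps6, Rps15, Rps4x and Rpl24 were also among the 12 positive genes, and none of them was called between the groups. Tuba1c, an alpha-tubulin, had a slope of 1.17 ± 0.174 (adjusted p = 0.0305). These genes and those of the next fit were chosen after their values were seen, except where the rule for named genes holds them.

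In the 21 strains BXD15-42 limma called 37 genes with a positive slope (0.245%) and 3 with a negative one (0.0199%), and 19 of the 440 higher genes were among the 37. Acsm3, Cyp4b1, Slc22a7, Mep1a, Ugt2b5, Tmem176a, Krt15 and 3300002P13Rik of the genes above belonged to them. Cyb5a, the cytochrome b5 that passes electrons to P450 enzymes, had the smallest p, with a slope of 0.87 ± 0.108 (adjusted p = 0.00029) and a group difference of 1.20 (adjusted p = 0.0172). The androgen-responsive genes Acsm3 and Cyp4b1 and the transporter Slc22a7 thus varied with the score among later strains, in which 5 of the 8 high strains play no part. Over the 440 higher genes the slope kept its sign for 434 in BXD15-42 and for 394 in BXD1-14, against 5677 and 4700 of the 7852 genes with a positive difference. The 16 ranked strains take part in these fits, so they do not stand apart from the group comparison.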

How the data were processed

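The deposited table held 23040 probes in 31 arrays as log ratios, read here as log2, which the authors made with R 2.0.0 and limma, per the submitters' processing notes; steps, log base and direction are not given in the sources used here. Log2 of strain over reference is the likely reading. Sorted values were identical in all arrays, so they had been quantile normalized. Signal intensities were not used here, so depth over background is unknown, and the number of arrays limits the precision. Platform annotation gave 16874 probes 1 gene name, 134 several and 6032 none; 16196 were matched by gene number and 6 by accession to the RefSeq table (GRCm38.p6).

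Probes of a gene were averaged (15095 genes). Groups were the 8 highest and 8 lowest means of the 4 genes, which left the tests. The main test was limma 3.58.1 in R 4.3.3 (lmFit, eBayes, 2-sided, no covariate) with Benjamini-Hochberg adjustment at 0.05 over 15091 genes. P-values measure spread between arrays of strains. On simulated data of this size 82% of changes of log2 size 1 and 99% of size 2 were called, with 11 unchanged genes. Whether these values hold for the deposited arrays, whose first principal component differed between the groups, was not tested.

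The rule and lists were chosen with earlier results of these data known. Genes named were the 12 largest differences each way past the threshold, all measured androgen-responsive and female-higher genes, up to 4 called genes per other list, and called neighbours of the 4. Alternatives changed scaling, spot position (place in a repeat of 480 spots), score, group size, strains, covariate and test.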

Additional observations from a re-analysis of the deposited data

Results flagged for a closer look

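Single strains stood apart from the other 7 of their group in 11 of 142 gene and group combinations looked at (gap to the nearest strain over the whole range, above Dixon's limit); chance gives about 1 in 20. None of these was tested further.

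In the high strains, BXD18, the one nearest the edge of its group, was apart in 4 genes: highest at 0.29 for 1700083H02Rik, at -0.33 for Olfr68 and at 0.86 for Cyp2a4, and lowest at -0.32 for Rps3. The other high strains ran from -3.27 to -1.97 for 1700083H02Rik and from -2.63 to -2.11 for Olfr68, so BXD18 lay nearer the low strains for both genes. BXD12 was highest at 2.24 for Hsd3b1, against 1.51 or less in the others.

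In the low strains, BXD38 was lowest at -2.25 for Rhpn1 and at -1.17 for Slc22a6. BXD33, the strain with the lowest score, was lowest at -2.13 for Slc22a7, where the others ran from -0.86 to -0.47, and highest at 1.22 for Podxl. BXD15 was lowest at -1.82 for Cox5b, and BXD21 at -0.60 for Abcc3.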

How the results depend on the processing

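The counts of 440 higher and 212 lower genes depended on the strains and on the genes of the score. Leaving out 1 strain in turn gave 114 (without BXD2) to 1035 (without BXD18) higher and 58 (without BXD20) to 676 (without BXD18) lower genes. Leaving Kap out of the score gave 146 and 41, leaving out Odc1 0 and 1 (1831 genes at an unadjusted p under 0.05), leaving out Adh1 6 and 1, and leaving out Slco1a1 608 and 450. A score of Odc1, Adh1 and Slco1a1 without BXD15, chosen after seeing the data, gave 0 and 0 (2614 unadjusted). The 6 highest against the 6 lowest gave 1023 and 711, and 10 against 10 gave 121 and 31. With spot position removed there were 184 and 115, without BXD15 and BXD38 68 and 26, in BXD1-32 only 75 and 23, with array weights 1319 and 756, with treat at a log2 change of 0.2 25 and 11, and with all 23036 probes singly 491 and 360. Strain order or the first component as a covariate gave 0 and 0, as did the 15 middle strains and, both chosen after seeing the data, the 3 high and 8 low strains of BXD15-42 (1099 unadjusted) and the 6 highest against the 6 lowest of BXD15-42 (1260). Slopes, likewise added, gave 12 and 10 in BXD1-14 and 37 and 3 in BXD15-42. Centring, robust eBayes, the probe of largest spread, a filter on the 10% of genes with the smallest spread, scaled markers and the slope over 31 strains stayed within 1.5 times of both counts. The cause of these shifts was not tested.

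Of 71 named genes, 30 changed sign somewhere. As slopes in the 15 middle strains these were Myo10 -0.16, 3300002P13Rik -0.43, Rhpn1 -0.27, Ogfrl1 0.18, 1700083H02Rik 0.69, 4930590G02Rik 1.35, Ppm1d 0.13, Il9 0.52, 5730442G03Rik 0.41, Olfr68 0.49, Nudt19 -1.15, Cyp2d9 0.25, Abcc3 0.18, Ncoa2 -0.39, Mtap 0.23, Oaz1 -0.11, Slc27a2 -0.26, Emcn -0.0030, Col3a1 -0.28, Chgb -0.39, Cox5b -0.87, Ndufa1 -0.28, Hspb1 -0.69 and Adh6b 0.38. As slopes in BXD1-14 they were Tmed6 -0.0097, Cyp4a12a -0.058, Cyp4a14 0.18, Ncoa2 -0.12, Col3a1 -0.071 and Adh6b 0.091, and in BXD15-42 Gusb -0.0075 and Podxl -0.012. In 6 against 6, Cyp2a4 was at -0.00095 and Cyp4a14 at 0.010, and in BXD1-32 Cyp4a14 was at 0.011. No paired analysis was possible because each strain has 1 array and replicate numbers only name strains. Without signal intensities, the limit set by background could not be given.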
